A study of Mus musculus with 21 samples.

Results

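Mitochondrial ribosomal protein genes were taken as every gene in the deposited tables whose symbol is Mrpl or Mrps followed by a number only, and 75 genes of 22040 listed in any table met this rule. Of these, 49 encode proteins named for the large subunit (Mrpl) and 26 proteins named for the small subunit (Mrps), and all 75 were listed in each of the 4 tables. Subunits were assigned by symbol throughout, which need not match the place of each protein in the ribosome. Transcript abundance had been measured by poly(A) RNA sequencing in 21 cultures of primary cortical neurons from newborn (P0) mouse pups, either wild-type (WT) or carrying the human P301S tau cDNA under the prion promoter (Tau). Neurons were treated for 24 h with 10 µM AdipoRon, a small-molecule agonist of adiponectin receptors, or with its vehicle DMSO. There were 5 Tau cultures with DMSO, 5 Tau cultures with AdipoRon, 5 WT cultures with DMSO and 6 WT cultures with AdipoRon. According to the study's methods, all cultures had received AraC against dividing glia, transgenic neurons were seeded with pre-formed tau fibrils, and a pup could give cultures to each treatment. The sources used here do not state clearly whether WT neurons were seeded too. If they were not, transgene and fibrils cannot be told apart in a comparison of Tau with WT neurons.

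The value used was the authors' mean log2 CPM (CPM, read counts relative to library size) of each gene in each table. Each table averages its own cultures, which gave a mean level over all DMSO cultures (10), all AdipoRon cultures (11), all Tau cultures (10) and all WT cultures (11). AdipoRon was therefore compared with DMSO with the genotypes pooled, and Tau with WT with the treatments pooled. Both comparisons divide the same 21 cultures, and the AdipoRon side holds 6 WT and 5 Tau cultures. The response of 1 genotype alone cannot be derived from these means, and a pooled difference can average unlike responses of the genotypes. Values of single cultures were not used here, so there is no SD, interval or test for any gene. Differences are given as descriptions, with the shares and medians over all genes for the counts, and whether it exceeds the spread between cultures is unknown.

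Mitochondrial ribosomes translate the few proteins that the mitochondrial genome encodes, all of them core subunits of the respiratory chain and ATP synthase. Their own proteins are all encoded in the nucleus, made by cytosolic ribosomes and imported into the matrix. Some are counterparts of bacterial ribosomal proteins and others are found in mitochondria only. Neurons depend on this system for oxidative phosphorylation.

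Promoters of these genes are known to carry short elements of housekeeping transcription factors, and windows are printed to show where such letters lie in members that the values turn on. Promoter sequences came from RefSeq (GRCm38.p6) and covered 250 bases before and 50 bases from each annotated start, with 66 of 75 members matched by 72 starts, some of them inside the gene. The NRF1 core GCATGCGC was searched on both strands and was present in 7 of 66 members (10.6%), compared with 3.05% of all 27025 genes with a promoter (2.71% of all 32851 promoters) and 6.16% of 7738 genes above 4 log2 CPM. Capitals mark that core in the windows of Mrpl9, Mrpl10 and Mrpl33, printed 5′ to 3′ on the strand of the gene.
Mrpl9, chr3:94443292-94443331, plus strand: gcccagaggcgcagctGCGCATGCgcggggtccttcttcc
Mrpl10, chr11:97041432-97041471, plus strand: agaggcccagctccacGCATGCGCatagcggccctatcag
Mrpl33, chr5:31613923-31613950, plus strand: ccttctaccggaacccGCGCATGCcccg
Mrpl9 and Mrpl10 are shown because they were among the members with the highest CPM, and Mrpl33 because it was among those with the lowest Tau minus WT differences. The start used for Mrpl9 lies 182 bases inside the annotated gene. The NRF1 core can be read on either strand, and in Mrpl9 it overlaps its own reverse complement.

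The ETS core CCGGAAGT, bound by factors such as GABPA, was present in 11 of 66 members (16.7%), compared with 4.31% of all genes with a promoter (3.89% of all promoters) and 9.41% of genes above 4 log2 CPM. Windows are printed for Mrpl3, a member with a high CPM, and for Mrps27, a member with a low level per length, whose start lies 19 bases inside the annotated gene. Capitals mark the ETS core on either strand.
Mrpl3, chr9:105053233-105053267, plus strand: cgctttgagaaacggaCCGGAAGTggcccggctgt
Mrps27, chr13:99344721-99344760, plus strand: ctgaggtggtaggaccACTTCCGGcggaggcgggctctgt
The YY1 core AAGATGGC was present in 11 of 66 members (16.7%), compared with 3.19% of all genes with a promoter and 5.60% of genes above 4 log2 CPM. TATAAA was present in 5 of 66 members (7.58%), compared with 15.7% and 8.26%. Counts are over genes with a match at any of their starts, so genes with more starts have more chances, and for Mrpl48 the only ETS match was at a start 25171 bases inside the gene. A match describes letters in the window only, and no binding was measured in these cultures.

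The 75 genes had moderate levels. Values in CPM grow with transcript length, so the order of genes on this scale is an order of reads and not of transcripts, and levels per length follow. Their median over the 4 tables was 4.90 log2 CPM (quartiles 4.43 and 5.22), compared with a median of 4.00 over the 19399 genes in all 4 tables. Members lay between the 32.3 and 77.7 percentiles of all genes, with a median percentile of 62.2, and 66 of 75 were above 4 log2 CPM. The median of the members was 4.91 in DMSO cultures, 4.90 in AdipoRon cultures, 4.89 in Tau cultures and 4.96 in WT cultures. Their summed level was 2242 CPM in DMSO cultures and 2306 CPM in AdipoRon cultures, a difference of 2.87%. The sum was 2235 CPM in Tau cultures and 2309 CPM in WT cultures, a difference of -3.24%.

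**Figure D1:**
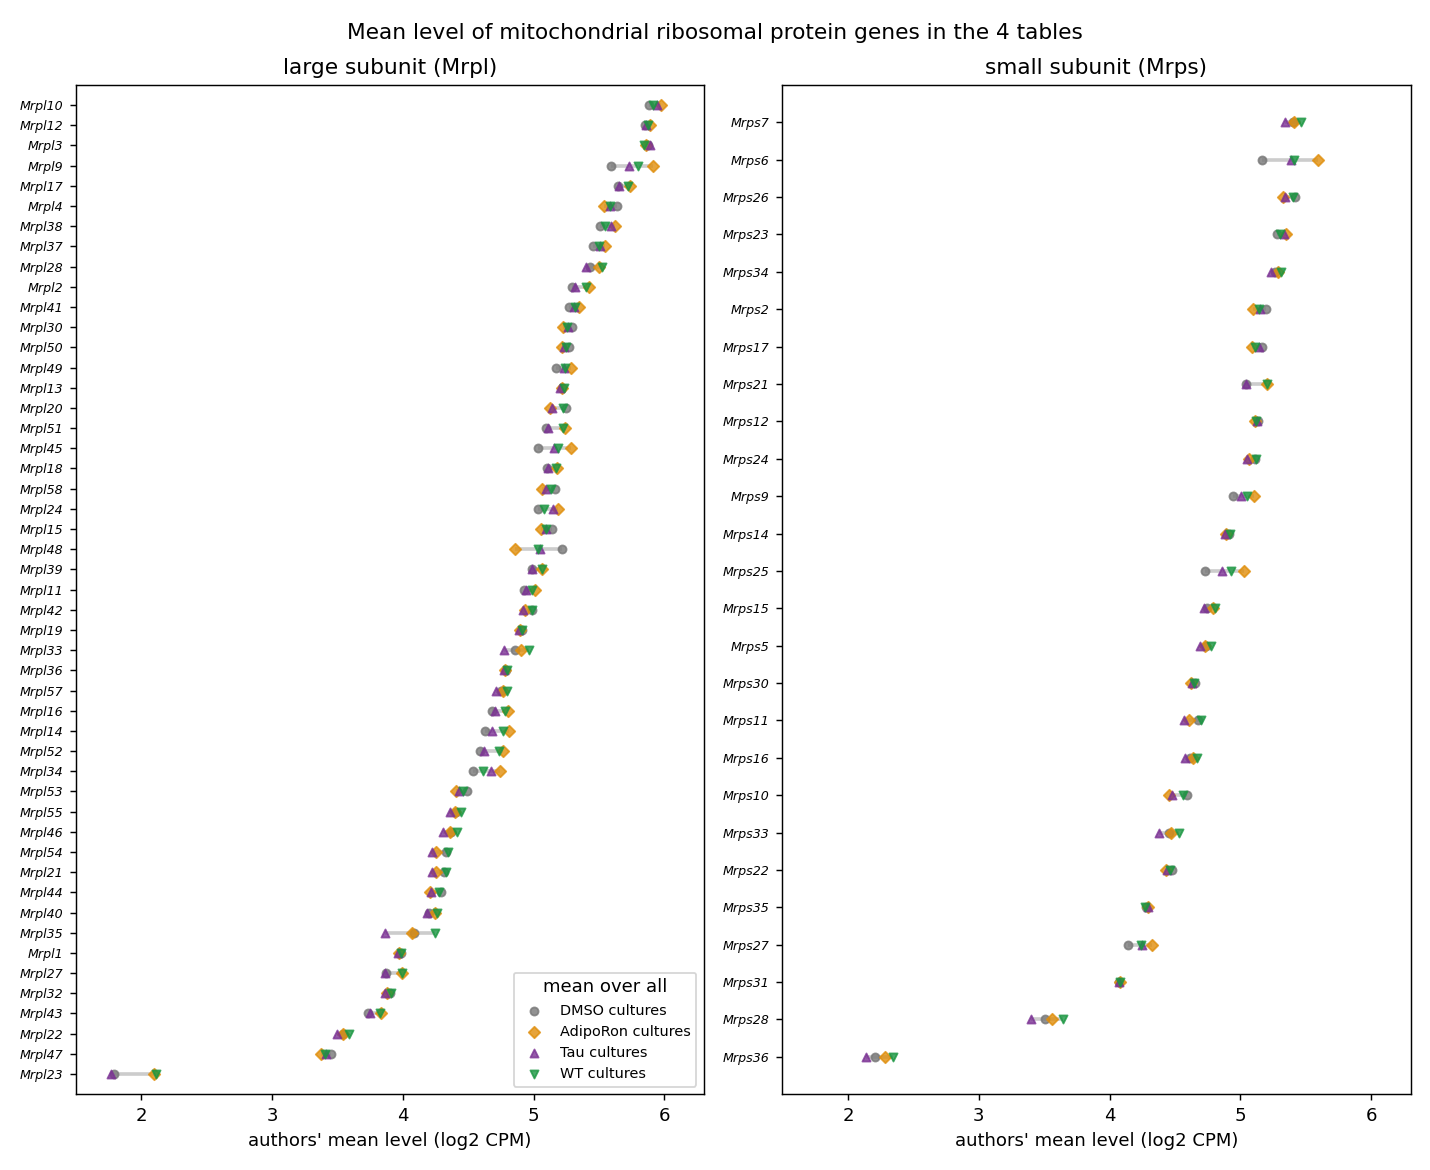
Mean level (log2 CPM, the authors' means) of each gene over all DMSO, AdipoRon, Tau and WT cultures, in 4 symbols joined by a grey line, ordered by level within the large (left) and the small subunit (right). Most genes sit between 4 and 6, Mrpl23 and Mrps36 lie lowest, and the grey line is longest for genes such as Mrps6, Mrpl48 and Mrpl35.

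In the large subunit the highest mean levels were those of Mrpl10 (5.93 log2 CPM), Mrpl12 (5.87), Mrpl3 (5.87) and Mrpl9 (5.76). Mrpl10 and Mrpl12 belong to the stalk, the flexible arm that recruits elongation factors, whereas Mrpl3 and Mrpl9 are counterparts of bacterial large-subunit proteins. Mrpl12 was at 5.85 in DMSO, 5.89 in AdipoRon, 5.86 in Tau and 5.88 in WT cultures. The 4 lowest were Mrpl23 (1.94), Mrpl47 (3.41), Mrpl22 (3.54) and Mrpl43 (3.78). Mrpl22, Mrpl23 and Mrpl47 lie along or at the rim of the tunnel through which the new peptide leaves, and Mrpl43 is found in mitochondria only. Mrpl24, another tunnel protein, was at 5.11, and Mrpl45, which holds the ribosome to the inner membrane near the tunnel exit, at 5.16. Per kilobase of coding length these 5 proteins were at 4.24 (Mrpl22), 3.14 (Mrpl23), 3.81 (Mrpl47), 5.74 (Mrpl24) and 5.29 (Mrpl45).

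In the small subunit the highest were Mrps7 (5.40 log2 CPM), Mrps6 (5.39), Mrps26 (5.37) and Mrps23 (5.32). Mrps6 and Mrps7 have bacterial counterparts, and Mrps23 and Mrps26 are found in mitochondria only. The lowest were Mrps36 (2.25), Mrps28 (3.53), Mrps31 (4.08) and Mrps27 (4.24). Mrps36 keeps its ribosomal symbol but is now assigned to the oxoglutarate dehydrogenase complex, and Mrps27 is an RNA-binding protein with pentatricopeptide repeats. Pseudogenes are named after 4 members in the GENCODE annotation, Mrpl23, Mrpl27, Mrpl48 and Mrps36, and their levels are uncertain because reads could be divided between a gene and its copies. Copies under other symbols were not searched for, so the other members may have copies too.

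To compare levels between genes, levels were divided by coding length. On the scale of log2 CPM per kilobase of coding length, the median was 5.79 for the members. It was 4.18 for all genes and 5.21 for genes above 4 log2 CPM. Neither set was matched to the members for coding length. Within bins of coding length the members' median was lower than that of other genes above 4 log2 CPM. Up to 500 nucleotides the medians were 6.24 and 7.06. Above 500 and up to 1000 nucleotides they were 5.70 and 5.99. Above 1000 and up to 2000 nucleotides they were 4.36 and 5.19. The members in these bins include those at or below 4 log2 CPM. On this scale Mrps6 was the highest member (6.80), followed by Mrps21 (6.63), Mrpl41 (6.62), Mrpl17 (6.61) and Mrps17 (6.60). The lowest were Mrpl23 (3.14), Mrpl47 (3.81), Mrps31 (3.87), Mrps27 (3.92) and Mrps36 (3.95). This order depends on the length used. Per kilobase of whole transcript Mrps21 was highest (5.97), Mrps6 was at 5.33, and Mrpl17 (2.81) and Mrps17 (2.57) were among the low members. The stalk proteins Mrpl10, Mrpl11 and Mrpl12 had levels per kilobase of coding length of 6.28, 5.76 and 6.60. The large subunit had a median of 5.79 per kilobase and the small subunit 5.64. Among genes named for the small subunit, 15 with a bacterial counterpart had a median of 5.87 per kilobase. The 11 found in mitochondria only had a median of 4.35. In the large subunit the corresponding medians were 5.79 (30 genes) and 5.70 (19 genes). The 11 genes named for the small subunit, assigned by symbol only, ranged from 3.87 to 6.23. They include Mrps36 (3.95), now assigned to another complex. The value next above their median was 5.85 (Mrps25), so that median depends strongly on which genes are counted. These subdivisions were made after the values had been seen.

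AdipoRon cultures were compared with DMSO cultures to ask how the abundance of these transcripts differed with treatment. The members as a group lay close to the other genes. The median difference was 0.01 on the log2 scale (quartiles -0.05 and 0.10), and 43 of 75 members (57.3%) had a higher mean with AdipoRon. Over the 19693 genes listed in both tables, 55% were higher and the median was 0.02, so the share of members was near that of all genes. Among 2263 genes between the quartiles of the members' levels, 60.7% were higher. In the large subunit 28 of 49 genes were higher and in the small subunit 15 of 26.

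Few members differed by more than 0.2 on the log2 scale. Higher by more than this were 6 members (8%), compared with 20.5% of all genes, and lower by more than this was 1 member (1.33%), compared with 18.3%. Among genes of like level the shares were 19.1% and 11.2%. The largest value was that of Mrps6 (chr16:92058336-92112227), a counterpart of bacterial S6, with 5.17 log2 CPM in DMSO and 5.59 in AdipoRon cultures, a difference of 0.42 (34.1%). Mrpl9 (chr3:94443154-94448708) had 5.59 and 5.91, a difference of 0.32 (24.6%). Per kilobase of coding length Mrpl9 was at 6.09, above the median of the members. Mrpl23 (chr7:142532467-142540747) had 1.79 and 2.10, a difference of 0.31, at the lowest level of any member. Mrps25 (chr6:92169512-92184023), a small-subunit protein found in mitochondria only, had 4.73 and 5.03, a difference of 0.30. Mrpl45 had 5.04 and 5.28 (0.25) and Mrpl34, a counterpart of bacterial L34, had 4.53 and 4.74 (0.21), and these completed the 6. Coordinates are those of the RefSeq annotation of GRCm38.p6.

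Mrpl48 (chr7:100545779-100608301), a protein of the central protuberance that is found in mitochondria only, was the sole member lower by more than 0.2, with 5.22 log2 CPM in DMSO and 4.85 in AdipoRon cultures (difference -0.36, or -22.3%). The next lowest differences were those of Mrps10 (4.59 and 4.45, difference -0.14), Mrpl20 (5.25 and 5.12, difference -0.13) and Mrps2 (5.20 and 5.09, difference -0.10), all counterparts of bacterial proteins. Other proteins listed here for the central protuberance, a list that need not be complete, had differences of 0.11 (Mrpl38), 0.04 (Mrpl40) and -0.01 (Mrpl46). None of these was near the value of Mrpl48. The stalk proteins Mrpl10, Mrpl11 and Mrpl12 had differences of 0.10, 0.08 and 0.04. Relative to the spread of differences among genes of like level, Mrps6 lay at 2.59 robust SDs, Mrpl9 at 1.95, Mrps25 at 1.81 and Mrpl48 at -2.23. Mrpl45, Mrpl34 and Mrpl23 lay at 1.52, 1.24 and 1.13. This spread is over genes and not over cultures.

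**Figure D2:**
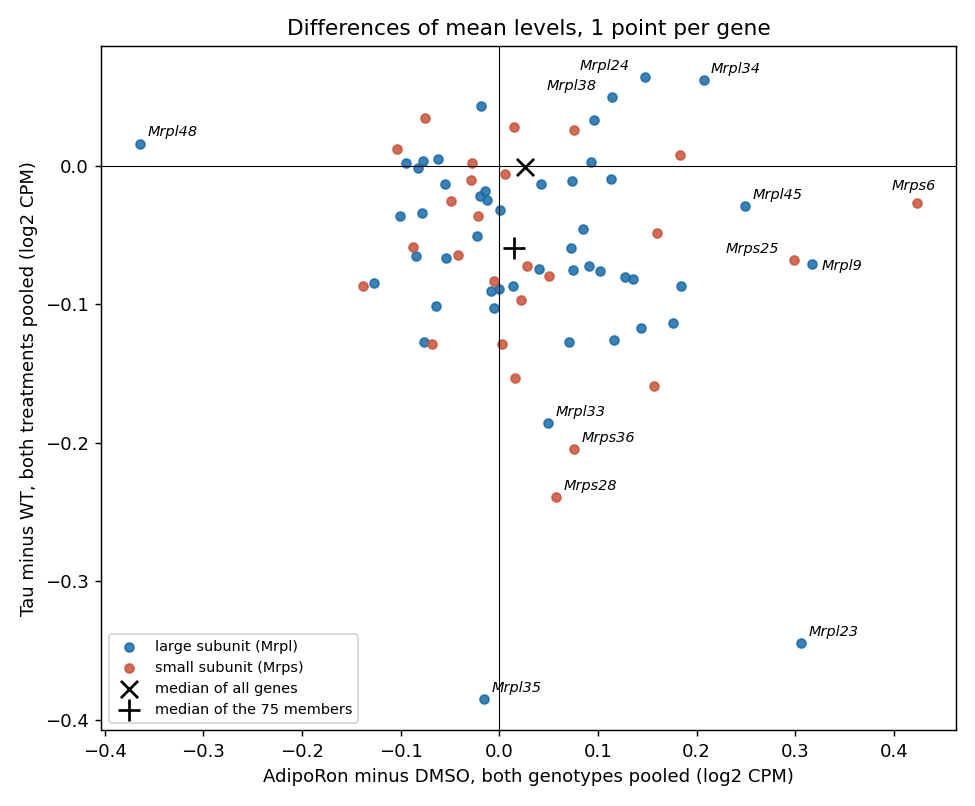
AdipoRon minus DMSO difference of mean log2 CPM (horizontal axis) against Tau minus WT difference (vertical axis), 1 point per gene coloured by subunit, with crosses at the medians of the 75 genes and of all genes. Mrps6 (0.42) and Mrpl48 (-0.36) stand at the ends of the horizontal axis and Mrpl35 (-0.39) lowest on the vertical one, and since both axes divide the same cultures their relation is not read.

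Tau cultures were compared with WT cultures to ask how the same transcripts differed between the genotypes. Whether the fibrils differed too is unclear, as stated above. Most members had a slightly lower mean in Tau cultures. The median difference was -0.06 on the log2 scale (quartiles -0.09 and -0.01), or -4.05%, and 59 of 75 members (78.7%) were lower. Over the 19890 genes that both tables list, 49.3% were lower, and among genes of like level (2263 genes) 62.1% were lower with a median of -0.02. The lower values were found in both subunits, with 39 of 49 large-subunit genes and 20 of 26 small-subunit genes lower. The sizes were small, with 4 members (5.33%) lower by more than 0.2 compared with 11.4% of all genes, and 0 members higher by more than 0.2 compared with 15.8%. Among genes of like level the shares were 9.59% and 2.52%, so 0 of 75 is near the share of such genes. The 4 members lower by more than 0.2 all lay below the lower quartile of the members' levels. Above 4 log2 CPM 1 of 66 members (1.52%) was lower by more than 0.2, compared with 6.56% of such genes. At or below 4 log2 CPM it was 3 of 9 members, and the share over all genes at such levels was not computed.

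Mrpl35 (chr6:71812997-71823784), a counterpart of bacterial L35, had the lowest difference, with 3.86 log2 CPM in Tau and 4.25 in WT cultures (difference -0.39, or -23.4%). It lay at -3.70 robust SDs of genes of like level, and its AdipoRon minus DMSO difference was -0.02. Mrpl23 had 1.77 and 2.11 (difference -0.34), Mrps28 (chr3:8802146-8923857) had 3.40 and 3.64 (difference -0.24), and Mrps36 (chr13:100735940-100744659) had 2.14 and 2.35 (difference -0.20). In robust SDs they lay at -1.62, -2.00 and -1.05, and Mrpl33 (difference -0.19) lay lower than these, at -2.11. Mrpl23, Mrps28 and Mrps36 were also among the low members per kilobase of coding length, at 3.14, 4.37 and 3.95. At the other end, Mrpl24 had 5.14 in Tau and 5.08 in WT cultures (difference 0.06), Mrpl34 4.68 and 4.61 (0.06), Mrpl38 5.60 and 5.55 (0.05) and Mrpl3 5.89 and 5.84 (0.04). Between these ends, 12 members had 4 means that lay within 0.05 of each other. Mrps12, a protein of the decoding centre, was at 5.14 in DMSO, 5.11 in AdipoRon, 5.12 in Tau and 5.12 in WT cultures. Mrps31 was at 4.08, 4.08, 4.07 and 4.08, and Mrpl36 at 4.79, 4.78, 4.77 and 4.79. Outside this range, Mrpl58, which acts as a peptidyl-tRNA hydrolase, was at 5.16, 5.06, 5.09 and 5.13, and Mrpl44, a protein related to ribonuclease III, at 4.29, 4.21, 4.21 and 4.28. Mrps6 and Mrpl48, which stood apart with AdipoRon, had Tau minus WT differences of -0.03 and 0.02.

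Markers of other cell types also differed between Tau and WT cultures. All 4 microglial markers were lower in Tau cultures, with a median difference of -0.98, and Cx3cr1 was at 4.16 log2 CPM in Tau and 5.34 in WT cultures. All 4 markers of the oligodendrocyte lineage were lower, with a median of -0.60. Of 7 neuronal markers 6 were higher, with a median of 0.11, and astrocyte markers had a median of -0.05. The mean levels of the neuronal markers were 7.66 to 9.97 log2 CPM. Gfap, the main astrocyte filament, was at 10.70 to 11.04 in the 4 tables, so astrocyte RNA was plentiful in cultures treated against glia. The endothelial marker Pecam1 was at -1.02 log2 CPM in Tau and -0.98 in WT cultures, and Cldn5 was not listed. With AdipoRon, 6 of 7 neuronal markers were lower, with a median of -0.20, and the medians were 0.06 for astrocyte, -0.17 for microglial and -0.16 for oligodendrocyte lineage markers. The astrocyte markers went both ways, with AdipoRon minus DMSO differences of 0.34 (Gfap), 0.42 (Aldh1l1), -0.23 (Aqp4) and -0.24 (Slc1a3). In these mixed cultures, fewer cells of a type and less RNA per cell cannot be told apart, and the part of these markers in the values of the members was not tested.

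The lower values in Tau cultures varied with coding length. Among members with a coding length up to 500 nucleotides, 23 of 27 were lower, with a median Tau minus WT difference of -0.08. Among those above 500 and up to 1000 nucleotides 29 of 37 were lower (median -0.06), and among the 11 longer ones 7 were lower (median -0.01). Other genes above 4 log2 CPM had medians of -0.05 (632 genes), -0.02 (1963 genes) and -0.01 (3489 genes) in the same bins. The shares of these other genes that were lower were 69.3%, 62.3% and 54.1%, compared with 85.2%, 78.4% and 63.6% of members. The members in these bins include 9 at or below 4 log2 CPM, of which 8 were lower (median -0.09). Of the 66 members above 4 log2 CPM, 77.3% were lower (median -0.05). Measured against the bin medians of all genes above 4 log2 CPM, members included, the members' median was -0.03. By this measure 27 of 75 members (36%) were higher, compared with 49.8% of all genes with a coding length. Without this centring 16 of 75 members were higher. Across the 75 members, Spearman's rho of coding length with the Tau minus WT difference was 0.33, and with the AdipoRon minus DMSO difference it was -0.10. Over 9357 genes above 4 log2 CPM it was 0.096 and -0.023. These correlations are descriptions across genes measured in the same cultures, and genes are not replicates.

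**Figure D3:**
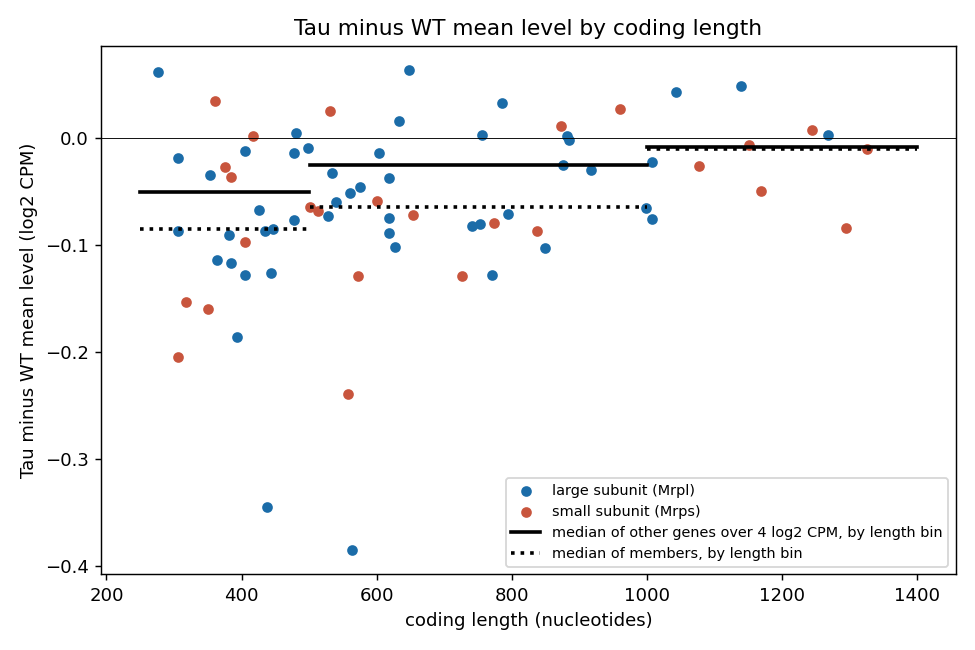
Tau minus WT difference of mean log2 CPM of each gene (points, coloured by subunit) against coding length in nucleotides, with medians by length bin of the members (dotted lines) and of other genes above 4 log2 CPM (solid lines). The members include those at or below 4 log2 CPM. Both medians lie lowest up to 500 nucleotides (-0.08 and -0.05) and both are at -0.01 in the last bin, which holds 11 members and is drawn only to about the longest of them.

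Other genes of mitochondrial translation are given by list, beside the 55% of all genes that were higher with AdipoRon and the 49.3% that were lower in Tau cultures. Of 8 mitoribosomal proteins with symbols outside the rule, 5 were higher with AdipoRon (median 0.04) and 6 lower in Tau cultures (median -0.05). Dap3, a GTP-binding protein of the small subunit, had an AdipoRon minus DMSO difference of 0.16, and Aurkaip1 one of -0.12. In Tau minus WT, Mrps18b had 0.08 and Mrps18c -0.24. Of 11 translation factors, 8 were higher with AdipoRon (median 0.03) and 6 lower in Tau cultures (median -0.00). Mrrf, the ribosome recycling factor, had differences of 0.18 with AdipoRon and 0.06 in Tau, and Tufm, the elongation factor that delivers tRNA, was at 3.77 in Tau and 4.00 in WT cultures (-0.23).

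Of 19 mitoribosome assembly genes, 10 were higher with AdipoRon (median 0.01) and 7 lower in Tau cultures (median 0.01). Mpv17l2, an inner-membrane protein needed for assembly, had the highest value with AdipoRon, with 5.04 log2 CPM in DMSO and 5.46 in AdipoRon cultures (0.42), whereas Mrm3, a methyltransferase for the ribosomal RNA, had -0.23. Of 6 genes for mitochondrial transcription and mRNA stability, 2 were higher with AdipoRon (median -0.01) and 3 lower in Tau cultures (median 0.02). Slirp, which stabilises mitochondrial mRNA, had differences of 0.12 with AdipoRon and -0.13 in Tau, and Tfb2m, a transcription factor, had -0.14 and 0.12. Of 17 mitochondrial tRNA ligases, 11 were higher with AdipoRon (median 0.08) and 6 lower in Tau cultures (median 0.02). Nars2 had an AdipoRon minus DMSO difference of 0.32, and Ears2 and Mars2 had the lowest, both -0.13. Lars2 was at 7.43 in Tau and 6.81 in WT cultures (0.62), and Wars2 had the lowest Tau minus WT difference (-0.12).

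Cytosolic ribosomal proteins, the counterparts that make every nuclear-encoded protein, stood apart from the mitochondrial ones in both comparisons. Of 84 such genes in all tables, 80 were higher with AdipoRon, with a median difference of 0.24 compared with 0.01 for the members. In Tau cultures 80 of 84 were lower, with a median of -0.31 compared with -0.06. Both comparisons divide the same cultures and are not independent of each other, and these pooled values do not show whether Tau and WT neurons responded alike to AdipoRon. Cytosolic ribosomal protein genes have many processed copies in the mouse genome, so reads could be divided between genes and copies.

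**Figure D4:**
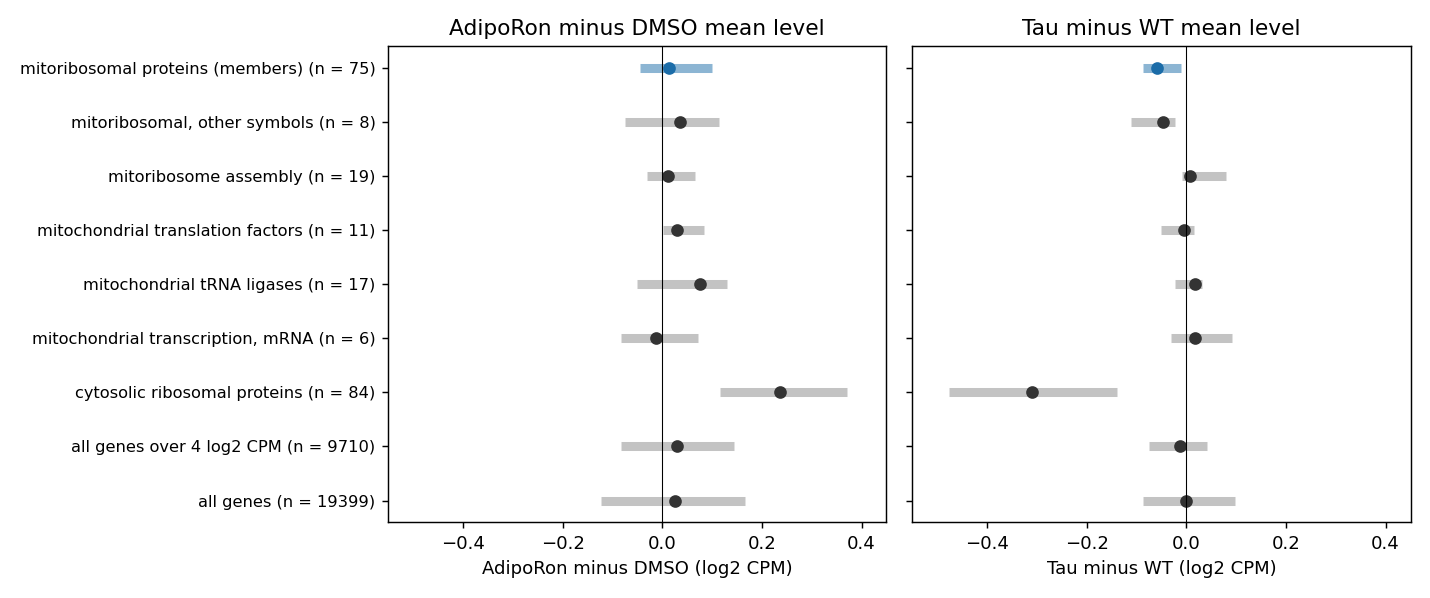
Median (point) and quartiles (bar) of the difference of mean log2 CPM over the genes of each list, for AdipoRon minus DMSO (left) and Tau minus WT (right), with the number of genes beside each list. The cytosolic ribosomal proteins (medians 0.24 and -0.31) lie farthest from 0, and the mitochondrial ribosomal proteins (0.01 and -0.06) lie near it.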

How the data were processed

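RNA from 21 cultures of primary cortical neurons had been sequenced by the authors, who per their methods trimmed reads, aligned them to mm10 with STAR, quantified them with RSEM and fitted a generalized linear model in edgeR. The submitters' processing notes name STAR, edgeR and mm10, whereas the paper's results name GRCm39. The deposited values are labelled Rsubread rather than RSEM, so how reads shared between genes and copies were counted is uncertain. The authors' deposited mean expression is a log2 value (log2 CPM) averaged over the cultures of each of the 4 tables. The normalization of libraries and the filter on genes are not given in the sources used here. Other columns hold the authors' fold changes, likelihood ratios, p-values, false discovery rates and calls, which were not used, and 0 columns of single samples were left out.

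Samples were grouped by genotype and treatment in their labels. Culture-weighted CPM summed over the DMSO and AdipoRon tables and over the Tau and WT tables differed by a mean of -0.000859 (SD 0.00486, largest 0.0304) on the log2 scale over 19399 genes, so each table averages its own cultures. Differences between tables that share no culture were computed per gene in Python 3.11.15 with pandas 2.3.3 and numpy 2.4.6, and the computation was tested on simulated data. Read counts per culture were not in the columns used, the study states an average number of reads only, and no test was made. Coding lengths (without the stop codon) and pseudogene names came from GENCODE vM39 (GRCm39), and promoters and positions from RefSeq (GRCm38.p6), matched by symbol. Robust SDs were taken over genes within 1 log2 CPM.

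Members and lists were chosen with earlier results of these data known, and the lists of stalk, tunnel, central protuberance and bacterial counterparts, and the bins of coding length, were made after the values had been seen. Named genes were the 4 highest and 4 lowest by level in each subunit and by each difference, and at most the 2 highest and 2 lowest of each comparison list. Further genes were picked with their values in view. Alternatives were centring on the median of all genes, genes in all 4 tables, genes above 4 log2 CPM, proteins under other symbols, robust SDs and level per kilobase, and, chosen after seeing the data, bins of coding length and level per kilobase of transcript.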

Additional observations from a re-analysis of the deposited data

How the results depend on the processing

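The direction of the AdipoRon minus DMSO median (0.01) depended on centring, with -0.0091 relative to the median of all genes and -0.021 relative to genes of like coding length, an alternative chosen after seeing the data. In robust SDs it was 0.086. The Tau minus WT median (-0.06) was below 0 in every alternative run, at -0.054 for members above 4 log2 CPM and -0.67 in robust SDs. Within bins of coding length it was -0.033. There 27 of 75 members (36%) were higher compared with 16 without the bins, beside 49.8% of all genes with a coding length. The median level (4.90) was 5.79 per kilobase of coding length and 3.88 per kilobase of transcript. The large minus small subunit difference of medians (0.14) was 0.15 per kilobase of coding length, 0.21 above 4 log2 CPM and 0.37 per kilobase of transcript. The cause of these shifts was not tested. The count of members higher with AdipoRon (43) ranged from 34 to 48 of 83. No paired analysis was possible because the values used here are means over cultures, and for the same reason no replicate could be left out. Without values per culture, the spread of low members such as Mrpl23 cannot be given.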
